A study of Mus musculus with 2 samples.

Results

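Transcripts of adrenergic and muscarinic receptors and of adenylyl cyclases were examined in the mouse heart at embryonic day 15.5. The set held 9 genes of the 43346 Ensembl genes in the files, 6 receptors (Adrb1, Adrb3, Adra1a, Adra1b, Adra1d and Chrm2) and 3 cyclases (Adcy5, Adcy6 and Adcy9), taken by their GENCODE M21 symbols and all found in both libraries. Whole hearts of B6NCrl embryos, male and female mixed, had been pooled into 2 samples, 78 embryos in replicate 1 and 62 in replicate 2, and each pool gave 1 RNA-seq library from 10 ng of RNA longer than 200 nt. Expected counts in Ensembl genes were 41221435 and 38457396. Both libraries belong to 1 group with no treatment or mutant, so there was no contrast between conditions. The smallest p that 2 libraries allow in an exact sign-flip test is 0.5, so levels and ratios are given as descriptions. Values over the 2 libraries are mean ± SD (n = 2), and that SD is a spread between pools of embryos.

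Noradrenaline from sympathetic nerves and adrenaline from the adrenal act on adrenergic receptors. Beta receptors couple through the stimulatory G protein Gs to adenylyl cyclase, which makes cyclic AMP and so activates protein kinase A (PKA), raising the rate and force of the heartbeat. Alpha-1 receptors couple through Gq to phospholipase C, and acetylcholine from the vagus nerve acts on muscarinic receptors, of which the cardiac type couples through Gi to restrain cyclase and open potassium channels. All 6 receptors thread the membrane 7 times and carry, at the inner end of the third helix, a conserved aspartate-arginine-tyrosine triplet that takes part in G protein activation. Their coding sequence around that triplet is shown to place the members beside each other. Each line holds 45 bases of the sense strand, 5′ to 3′, from the GENCODE M21 transcripts, with the 3 codons of the triplet in capitals.
Adrb1: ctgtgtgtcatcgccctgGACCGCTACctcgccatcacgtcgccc
Adrb3: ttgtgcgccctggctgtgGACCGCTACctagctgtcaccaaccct
Adra1a: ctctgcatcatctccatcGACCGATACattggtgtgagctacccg
Adra1b: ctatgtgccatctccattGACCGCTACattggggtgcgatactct
Adra1d: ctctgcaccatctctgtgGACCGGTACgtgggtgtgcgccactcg
Chrm2: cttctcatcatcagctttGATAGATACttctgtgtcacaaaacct
The triplet occurred 1 time in each coding sequence. Over the 45 bases, Adra1a shared 35 with Adra1d and 34 with Adra1b, Adra1b shared 32 with Adra1d, and Adrb1 shared 30 with Adrb3. Chrm2 shared between 22 and 27 bases with the adrenergic receptors. The longest stretch that any pair of the 9 coding sequences shared exactly was 30 bases, between Adrb1 and Adrb3:
Adrb1 and Adrb3: tgctggctgcccttcttcctggccaacgtg
The longest between cyclases was 29 bases, shared by Adcy5 and Adcy6:
Adcy5 and Adcy6: cggctgctcaatgagatcatcgcagactt
These stretches set how long a read must be to separate the members within coding sequence. The sources used here do not state the read length. In the deposited tables the expected counts of Adrb1, Adrb3, Adra1a, Adra1b, Adcy5 and Adcy9 were whole numbers in both libraries.

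Adcy6, Adcy5, Chrm2, Adra1b and Adrb1 made up the detected genes, and the receptors Adra1d, Adrb3 and Adra1a each had fewer than 100 counts in either library. Of the 9 genes, 5 reached 1 TPM (reads per transcript length, scaled to a fixed sum in each library) in both libraries, where 58.2% of the 21474 protein-coding genes did. By mean TPM the order was Adcy6, Chrm2, Adcy5, Adra1b, Adrb1, Adcy9, Adra1d, Adrb3 and Adra1a. By TPM values alone, neighbours in this order were separated, except Adcy9 and Adra1d, which overlapped. Separated means the lower library of the higher gene stood above the higher library of the lower gene. The authors' deposited intervals also met for Adra1b (3.91 to 5.12) and Adrb1 (3.54 to 4.48) in replicate 2. They met for Adra1d (0.340 to 0.704) and Adrb3 (0.246 to 0.579) in replicate 1. In replicate 2 they met for Adrb3 (0.222 to 0.522) and Adra1a (0.118 to 0.289). The place of Adra1b above Adrb1 depends on whether Adra1b-202, annotated as noncoding, is counted. That transcript and the protein-coding Adra1b-204 had the same length, start and counts, so their reads were not told apart. From transcripts annotated as protein-coding alone, Adra1b had 3.72 and 2.91 TPM against 3.09 and 4.08 TPM for Adrb1. The order then turned in replicate 2 and in the mean. The other members kept their order by mean in that comparison, which was added after the data were seen. In whole tissue, fewer cells of a type and less RNA per cell cannot be told apart.

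**Figure D1:**
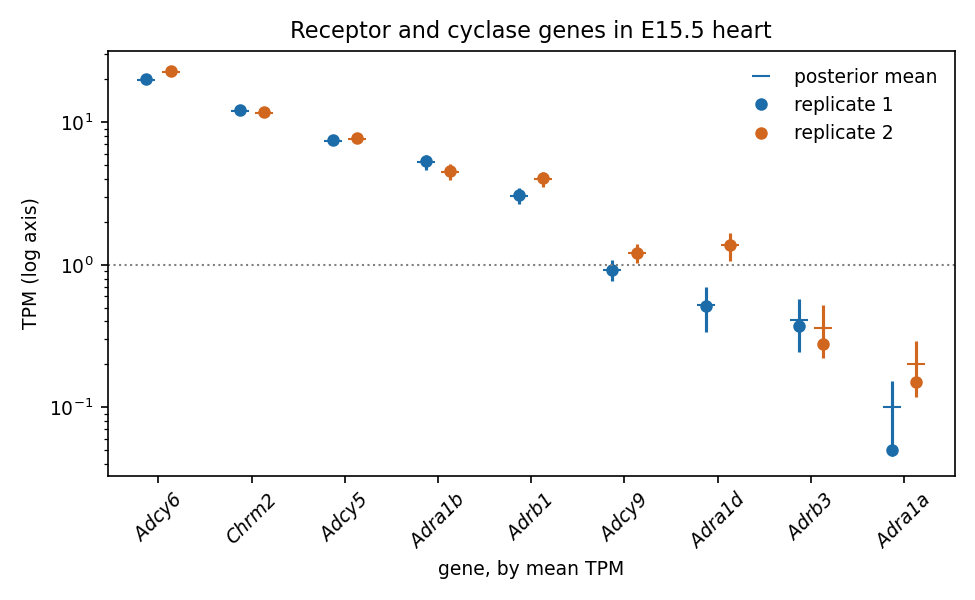
TPM on a log axis for each receptor and cyclase gene, with a filled point for each library, a short horizontal mark for the deposited posterior mean and a vertical line for the authors' deposited interval around it. Adcy6 sits above 20 TPM in both libraries, and Adra1d is the gene whose 2 points lie on different sides of the dotted line at 1 TPM with intervals that do not meet.

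Chrm2, the main muscarinic receptor of the heart, was the most abundant receptor of the set. It stood at 12.14 TPM in replicate 1 and 11.80 TPM in replicate 2, a mean of 12.0 ± 0.240 TPM, from 1999.37 and 1695.65 expected counts. The libraries lay close together, and the level was above that of 68.1% of protein-coding genes in replicate 1 and 64.9% in replicate 2. Chrm2 made up 95.7% and 94.6% of the summed TPM of the 5 muscarinic receptor genes. The Gq-coupled Chrm3 followed at 0.44 and 0.41 TPM, and Chrm1, Chrm4 and Chrm5 were at 0.20 TPM or less in each library. Chrm2 lies at 36388084 to 36528414 on the plus strand of chromosome 6 (mm10), and its 5′ end overlaps the lincRNA gene 9330158H04Rik on the opposite strand, which had 268.63 and 171.35 counts. The sources used here do not state whether reads were counted by strand.

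Adrb1, the main beta receptor of cardiac muscle, was present at a lower level. It had 3.09 TPM in replicate 1 and 4.08 TPM in replicate 2, from 240 and 283 counts, a mean of 3.58 ± 0.700 TPM that lay near the middle of all protein-coding genes (50.1% and 49.9% of them lower). The gene lies at 56722199 to 56733113 on the plus strand of chromosome 19. The log2 ratio of Adrb1 over Chrm2 was -1.94 in replicate 1 and -1.51 in replicate 2, on log2((TPM + 0.1)/(TPM + 0.1)), the scale of all ratios between members. The receptor for vagal input therefore exceeded the receptor for sympathetic input in RNA level in both pools, with a mean ratio of -1.72 ± 0.30.

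Adrb3, the beta receptor best known from fat cells, was scarce. It had 21 counts in replicate 1 (95% exact Poisson interval 13.0 to 32.1, counting error only) and 22 in replicate 2 (13.8 to 33.3), or 0.37 and 0.28 TPM. The gene lies at 27225776 to 27250616 on the minus strand of chromosome 8, with the antisense gene Gm45470 on the opposite strand. The log2 ratio of Adrb1 over Adrb3 was 2.76 and 3.46, a mean of 3.11 ± 0.49. Of 5 adipocyte markers, Plin1, Lep and Cidec had 0 counts in both libraries, Adipoq had 1 and 3 counts, and Ucp1 had 1 and 0. The summed level of the list was 0.09 TPM in each library.

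Among the alpha-1 receptors, Adra1b carried most of the signal. It stood at 5.33 TPM in replicate 1 and 4.57 TPM in replicate 2 (422 and 344 counts, mean 4.95 ± 0.537 TPM). Adra1d, known from arterial smooth muscle, had 0.51 and 1.38 TPM from 30 counts (95% exact Poisson interval 20.2 to 42.8) and 71.92 counts (56.3 to 90.7). Adra1a, the subtype known from adult heart and prostate, had 7 counts (2.81 to 14.4) and 17 counts (9.90 to 27.2), or 0.05 and 0.15 TPM. Adra1b lies at 43774606 to 43901210 on chromosome 11 (minus strand), Adra1d at 131545850 to 131562283 on chromosome 2 (minus strand) and Adra1a at 66635251 to 66771168 on chromosome 14 (plus strand). Adra1d and Adra1a were higher in replicate 2, and Adra1b was higher in replicate 1. The log2 ratio of Adra1b over Adra1a was 5.18 and 4.22, and that of Adra1b over Adra1d was 3.15 and 1.66. In TPM, Adra1b exceeded Adra1d 10.5-fold in replicate 1 and 3.31-fold in replicate 2, so the size of this difference rests on the library while its direction was the same in both.

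The alpha-2 receptors, which couple to Gi and restrain transmitter release from nerve endings, were low. Adra2b had 0.93 and 1.10 TPM, Adra2a had 0.04 and 0.15 TPM, and Adra2c had 0.02 and 0.06 TPM. Over the 8 adrenergic receptor genes analysed here, Adra1b made up 51.5% of the summed TPM in replicate 1 and 38.8% in replicate 2. The share of Adrb1 was 29.9% and 34.7%. With all transcripts counted, these 2 genes were at the top of the family in both pools.

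Adcy6 was the most abundant cyclase and the most abundant gene of the set. It stood at 20.18 TPM in replicate 1 and 23.01 TPM in replicate 2 (3876.99 and 3948.75 counts, mean 21.6 ± 2.00 TPM). Adcy5, like Adcy6 a calcium-inhibited cyclase of cardiac muscle, had 7.50 and 7.81 TPM (1682 and 1564 counts, mean 7.66 ± 0.219 TPM). The log2 ratio of Adcy6 over Adcy5 was 1.42 and 1.55, a mean of 1.48 ± 0.09, the smallest spread of the 6 ratios computed. Adcy9, a cyclase that forskolin stimulates poorly, had 0.92 and 1.21 TPM (137 and 162 counts), and its log2 ratio to Adcy5 was -2.90 and -2.59. Adcy6 lies at 98589973 to 98610076 on the minus strand of chromosome 15, Adcy5 at 35154877 to 35305738 on the plus strand of chromosome 16 and Adcy9 at 4287529 to 4420498 on its minus strand. An antisense gene, Gm29331, overlaps Adcy6 at 98589990 to 98591090 of chromosome 15 and had 71.01 and 89.25 counts.

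The other cyclases were not all lower than the 3 of the set. Adcy4, of the group that G protein beta-gamma subunits stimulate, stood at 11.42 and 12.33 TPM and so ranked second of the 10 cyclase genes, above Adcy5 in both libraries. Adcy3, a calmodulin-stimulated cyclase known from olfactory neurons, had 3.93 and 6.10 TPM, and Adcy7 had 1.56 and 4.12 TPM (log2 ratio 1.18 between the libraries), both above Adcy9. Adcy6 made up 43.1% and 40.3% of the cyclase TPM, Adcy4 24.4% and 21.6%, Adcy5 16.0% and 13.7%, and Adcy9 1.97% and 2.12%. Adcy5, Adcy6 and Adcy9 together came to 61.1% and 56.1%. Adcy8 and the bicarbonate-stimulated soluble cyclase Adcy10 were at 0.12 TPM or less in each library.

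**Figure D2:**
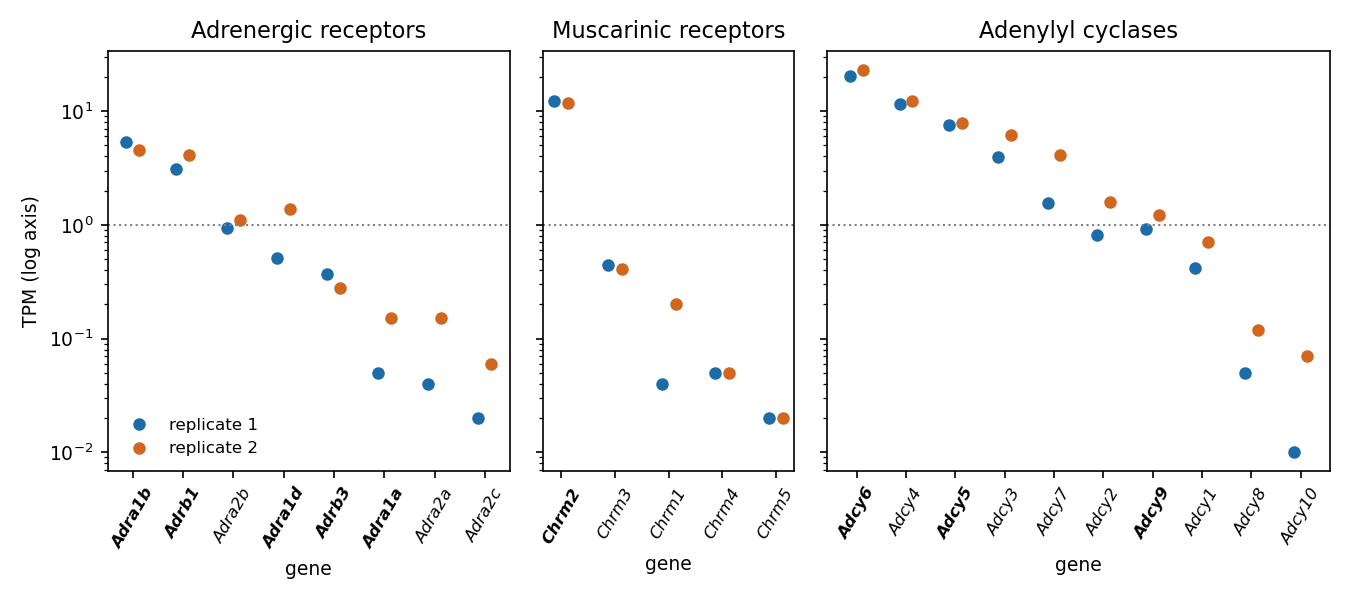
TPM on a log axis for the adrenergic receptor, muscarinic receptor and adenylyl cyclase genes analysed, 1 point for each library and gene, ordered by mean TPM within each family, with the 9 genes of the set in bold. Chrm2 stands alone above 10 TPM among the muscarinic receptors, and Adcy4, with 11.42 and 12.33 TPM, lies between Adcy6 and Adcy5.

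Adra1b was the member whose transcripts began at sites far apart. By the authors' deposited percent of gene TPM, Adra1b-203, which begins at 43901210 on the minus strand of chromosome 11, took 39.84% in replicate 1 and 27.37% in replicate 2. Adra1b-202 and Adra1b-204, which both begin at 43836332 and received equal counts, took 30.08% each in replicate 1 and 36.31% each in replicate 2. Summed by start site, the inner site had 3.20 and 3.32 TPM and the outer site 2.12 and 1.25 TPM. The inner site was the higher in both libraries, and in TPM the lower level of Adra1b in replicate 2 lay at the outer site. Adra1b-201, which shares the outer start, received 0 counts in both libraries. Adra1b-202 is annotated as noncoding and Adra1b-203 and Adra1b-204 as protein-coding.

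The promoter table of RefSeq (build GRCm38.p6) held 6 promoters for 5 of the 9 genes, with 2 for Adra1b. The 250 bases before the start are printed, 5′ to 3′ on the gene's strand, for both Adra1b promoters, because the transcript counts divide between them, and for Adrb1 and Chrm2, the receptors of sympathetic and vagal input. Capitals mark TGACG (or CGTCA), the core of the cyclic AMP response element, and CCAAT (or ATTGG), the CCAAT box.
Adra1b, outer start, chr11:43901238-43901487, minus strand: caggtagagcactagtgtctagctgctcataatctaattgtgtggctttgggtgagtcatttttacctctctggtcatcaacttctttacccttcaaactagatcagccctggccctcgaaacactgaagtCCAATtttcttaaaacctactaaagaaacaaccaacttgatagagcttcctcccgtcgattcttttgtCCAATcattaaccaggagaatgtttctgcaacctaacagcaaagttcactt
Adra1b, inner start, chr11:43836490-43836739, minus strand: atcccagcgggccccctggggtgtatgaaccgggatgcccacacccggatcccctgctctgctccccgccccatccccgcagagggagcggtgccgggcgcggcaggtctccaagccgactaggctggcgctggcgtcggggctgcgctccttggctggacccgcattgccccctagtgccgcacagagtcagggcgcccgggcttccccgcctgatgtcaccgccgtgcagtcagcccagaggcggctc
Adrb1, chr19:56721867-56722116, plus strand: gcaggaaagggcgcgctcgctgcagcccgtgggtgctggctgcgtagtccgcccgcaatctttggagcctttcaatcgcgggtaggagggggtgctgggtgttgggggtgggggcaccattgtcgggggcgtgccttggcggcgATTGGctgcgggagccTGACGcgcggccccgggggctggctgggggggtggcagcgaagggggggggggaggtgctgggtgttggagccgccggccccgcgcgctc
Chrm2, chr6:36387834-36388083, plus strand: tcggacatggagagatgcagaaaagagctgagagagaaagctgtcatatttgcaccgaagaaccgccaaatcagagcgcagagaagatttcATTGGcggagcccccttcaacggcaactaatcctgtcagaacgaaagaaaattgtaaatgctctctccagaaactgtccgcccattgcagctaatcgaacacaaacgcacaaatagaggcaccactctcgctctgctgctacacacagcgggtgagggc
The RefSeq starts of Adra1b lie upstream of the 2 start sites given above. The 2 Adra1b promoters were unlike in composition. The outer one had a GC content of 41.6% with 3 CpG dinucleotides and 2 CCAAT boxes, and the inner one 72.8% with 22 CpG dinucleotides and no CCAAT box. Over all 32851 promoters of the table the medians were 52.4% and 6. Adrb1 had 74.0% GC and 24 CpG dinucleotides, and Chrm2 50% and 12. Adcy5 and Adcy9 were the richest of the 6, with 78.0% and 78.8% GC and 32 and 34 CpG dinucleotides. TGACG was found on either strand in 2 of the 6, Adrb1 and Adcy9, against 17.8% of all promoters. The full palindrome TGACGTCA, which contains TGACG, was in 0 of the 6 against 1.55%. CCAAT was in 3 of the 6 against 33.8%, and the GC box GGGCGG (or CCGCCC) in 5 of the 6 against 32.7%. TATAAA (or TTTATA) and AGATAA (or TTATCT) were in 0 of the 6, against 12.4% and 9.99%. A match describes the letters in the window and not a bound site.

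For the other members the transcript tables added detail at unequal depth. Adrb1, Adra1d, Adcy5 and Adcy6 had 1 transcript each in the authors' annotation. The coding Chrm2-202 took 89.86% and 87.49% of Chrm2, and the noncoding Chrm2-201, of 697 bases, took 10.14% and 12.51% from 23.90 and 25.61 counts. Adcy9 was split between Adcy9-202 (58.03% and 56.42%) and Adcy9-203 (41.97% and 43.58%), at close to the same shares in both libraries. All 21 counts of Adrb3 in replicate 1 were assigned to Adrb3-203, of 1864 bases, and all 22 in replicate 2 to Adrb3-201, of 2795 bases. TPM of Adrb3 was therefore divided by different lengths in the 2 libraries, while its counts were nearly equal. Adra1a was assigned to Adra1a-202 alone in replicate 1 and mostly to Adra1a-203 (58.61%) in replicate 2, from 7 and 17 counts.

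**Figure D3:**
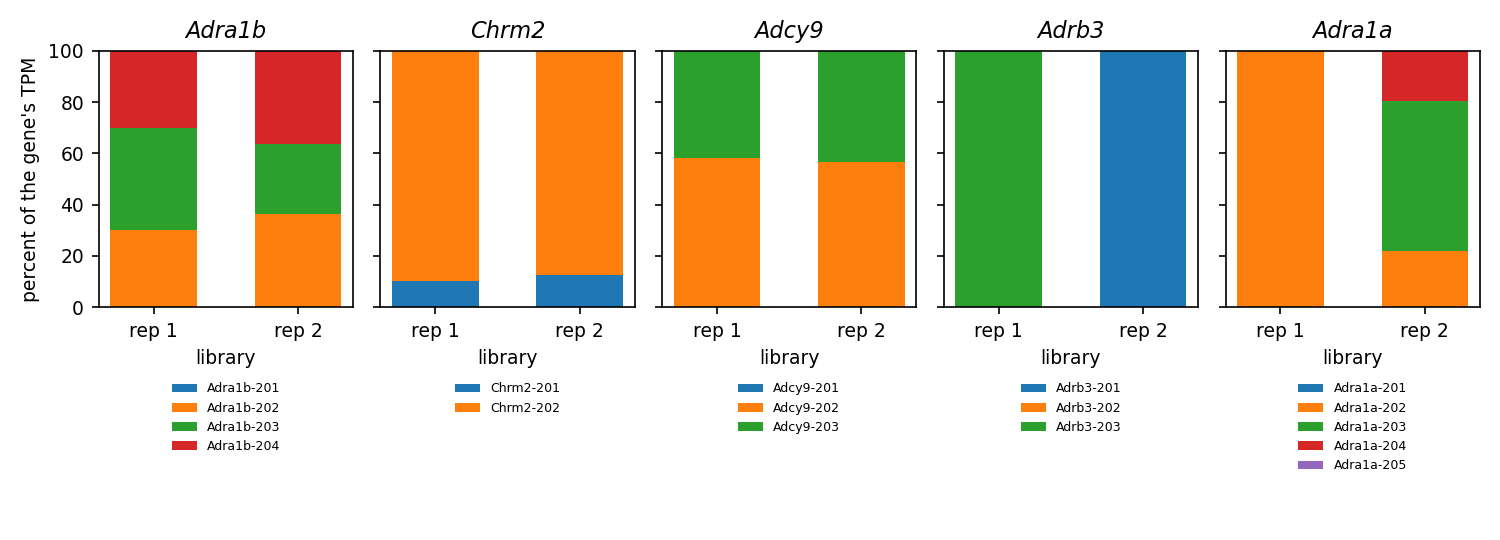
Stacked bars give the authors' deposited percent of each gene's TPM in each annotated transcript, for replicate 1 and replicate 2, for the 5 genes with more than 1 transcript. The shares of Chrm2 and Adcy9 are close between libraries, Adra1b-203 takes 39.84% and 27.37%, and Adrb3 and Adra1a, with 7 to 22 counts a library, change transcript.

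Between the 2 pools most members were close. On counts scaled by edgeR's trimmed mean of M values (TMM), 1 of the 8 members that had 10 or more counts in each library, Adra1d, was more than 2-fold apart. Over all 17054 genes that met this count, 6.78% were, with 5.85% higher and 0.932% lower in replicate 2. The share depended on depth, at 17.6% for genes with a mean count of 10 to 100, the class of Adra1d and Adrb3, 7.2% for 100 to 1000, the class of Adrb1, Adra1b and Adcy9, and 0.458% for 1000 or more, the class of Adcy6, Chrm2 and Adcy5. Each side is a single pool, so these differences have no replicate check.

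Adra1d was 2.28-fold higher in replicate 2, a log2 ratio of 1.19 with a 95% exact interval of 0.56 to 1.86 for counting error. Adra1a, with 7 counts in replicate 1, did not meet the count minimum, and its ratio of 1.21 had an interval of -0.14 to 2.72. The other log2 ratios of replicate 2 over replicate 1 ran from -0.37 for Adra1b and -0.31 for Chrm2 through -0.18 for Adcy5, -0.05 for Adcy6 and -0.01 for Adrb3 to 0.17 for Adrb1 and 0.17 for Adcy9. Adra1b and Chrm2 were lower in replicate 2 under every scaling tried (TMM, DESeq2 size factors, total gene counts, spike-ins and deposited TPM). Adcy6 turned to 0.13 with total gene counts and to 0.19 in TPM, Adcy5 to 0.06 in TPM, and Adrb3 to 0.01 with DESeq2 size factors and 0.17 with total gene counts. Adrb1 turned to -0.75 and Adcy9 to -0.75 with spike-ins. The median of all genes stood at -0.02 with TMM, 0.16 with total gene counts, 0.21 in TPM and -0.93 with spike-ins, and ratios are relative to it. With spike-ins Adra1d stood at 0.27, and 3 other members, Adra1b, Chrm2 and Adcy5, were more than 2-fold lower in replicate 2.

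**Figure D4:**
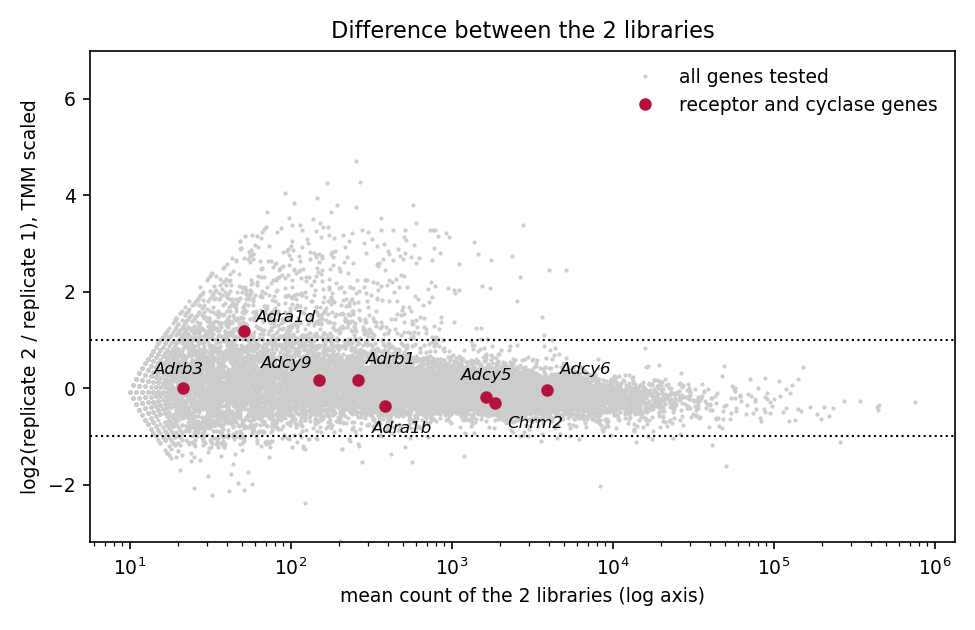
Each point is a gene that met the minimum of 10 counts in each library. The horizontal axis is its mean count on a log axis and the vertical axis its TMM-scaled log2 ratio of replicate 2 over replicate 1, with dotted lines at 2-fold. Adra1d, at 1.19, lies above the upper line, and the other 7 receptor and cyclase genes shown lie between -0.37 and 0.17.

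Markers of other cell types also differed between the pools, and their part in these ratios was not tested. Of 8 sympathetic and neural markers 6 were more than 2-fold higher in replicate 2, with a summed level of 13.8 and 62.9 TPM. The counts were 6 of 6 for liver (19.3 and 116.6 TPM), 4 of 4 testable for thymus (11.1 and 108 TPM) and 3 of 5 for lung epithelium (132 and 329 TPM). Of 5 smooth muscle markers 1, Myh11, was more than 2-fold higher (log2 ratio 1.24), and the summed level was 1241 and 1316 TPM. All 7 cardiomyocyte markers were detected, with a median log2 ratio of -0.44 and a summed level of 24235 and 19539 TPM. Fibroblast (2228 and 2710 TPM), endothelial (287 and 338 TPM) and macrophage markers (93.2 and 147 TPM) held no gene beyond 2-fold. No marker of these 9 lists was at 0 in both libraries.

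The rest of the pathway was read from 17 gene lists with 142 matched genes, of which 111 (78.2%) reached 1 TPM in both libraries. Of the 130 that met the count minimum, 11 were more than 2-fold higher and 1 more than 2-fold lower in replicate 2, or 9.23% against 6.78% of all genes. Their median log2 ratio was -0.04, beside -0.02 for all genes.

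Levels of the G protein genes ran from below those of the detected receptors to far above them. Gnas, which encodes the stimulatory alpha subunit in an imprinted locus with overlapping transcripts, stood at 1151 and 1169 TPM. The inhibitory subunits followed, with Gnai2 at 303 and 354 TPM, Gnai3 at 54.5 and 66.0 TPM and Gnai1 at 20.5 and 20.8 TPM. Of the Gq class, through which Adra1b signals, Gna11 had 43.1 and 52.7 TPM and Gnaq 13.0 and 16.0 TPM. Of 10 alpha subunits 7 were detected, and Gnaz (log2 ratio 1.27) and Gna15 (1.06) were more than 2-fold higher in replicate 2. Gna15, at 0.53 and 1.30 TPM, was the lowest. Of 15 beta and gamma subunits 12 were detected. Gng5 was the highest of the list, at 1144 and 849 TPM, and Gng4 the lowest, at 0.16 and 0.61 TPM. The neuronal Gng3 was higher in replicate 2 (log2 ratio 1.66) and Gng13 lower (-1.13).

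The genes that switch receptor signals off were next. The 5 receptor kinases and 2 arrestins were detected in both libraries. Grk6 was highest, at 12.1 and 19.3 TPM. Grk2, the kinase known for desensitizing cardiac beta receptors, had 7.42 and 14.7 TPM. Grk5 had 2.96 and 3.48 TPM, Grk4, the lowest, 1.49 and 1.75 TPM, Arrb1 3.89 and 6.57 TPM and Arrb2 9.46 and 12.1 TPM. None of the 7 was more than 2-fold apart. Of 10 RGS proteins, which shorten G protein signals, 8 were detected. Rgs3 led at 46.3 and 58.7 TPM, and Rgs6, which acts on the muscarinic potassium current, had 8.99 and 8.11 TPM. Rgs7 was the lowest by mean TPM, at 0.47 and 1.18 TPM, and Rgs4 (log2 ratio 1.27), Rgs7 (1.14) and Rgs14 (2.00) were higher in replicate 2.

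Downstream of cyclase, most of the cyclic AMP machinery was detected. All 9 PKA subunits and inhibitors were present, led by the regulatory subunit Prkar1a (353 and 351 TPM), the inhibitor Pkig (295 and 237 TPM) and the catalytic subunit Prkaca (214 and 201 TPM), with Pkib lowest at 2.10 and 3.13 TPM. Prkar1a made up 90.3% and 89.1% of the regulatory subunit TPM and Prkaca 85.1% and 82.8% of the catalytic subunit TPM. All 5 other effectors were detected, from the exchange factor Rapgef4 (3.04 and 4.05 TPM) to the cyclic AMP-binding Popdc2 (290 and 269 TPM). All 7 anchoring proteins were too, from Akap5, which docks PKA at the membrane, at 2.37 and 3.31 TPM to Akap9 at 82.5 and 66.7 TPM. Of 16 phosphodiesterases, which break cyclic nucleotides down, 14 were detected. Pde4b (20.3 and 22.5 TPM), Pde1a (21.6 and 20.9 TPM) and Pde4d (21.2 and 19.5 TPM) each took between 16.3% and 18.9% of their summed TPM. That sum covers the 16 genes and leaves out Pde2a, which had no match. The cardiac Pde3a had 5.97 and 6.69 TPM and Pde4c, the lowest, 0.16 and 0.26 TPM. None of the genes of these 4 lists was more than 2-fold apart.

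Targets of the receptors were abundant on the muscle side. All 12 PKA targets in muscle were detected, from Cacnb2 (10.1 and 8.26 TPM) to the troponin Tnni3 (2910 and 2313 TPM), with Pln, phospholamban, at 779 and 529 TPM. All 12 were lower in replicate 2, both on the TMM scale (median log2 ratio -0.42) and in TPM, and none was more than 2-fold apart. Of all 17054 genes compared, 8175 were higher in replicate 2 on the TMM scale. In TPM, 2974 of the 12491 detected protein-coding genes were lower in replicate 2. The cardiomyocyte markers had a median of -0.44 on the TMM scale, and their part was not tested. Of the channels, Kcnj5 (20.3 and 19.2 TPM) and Kcnj3 (4.65 and 4.79 TPM), the subunits of the muscarinic potassium channel that Chrm2 opens, were detected, as was the pacemaker channel Hcn4 (1.31 and 1.25 TPM). Hcn2 was at 0.06 and 0.08 TPM. All 11 Gq effectors were detected, from Itpr3 at 1.20 and 2.28 TPM to Itpr2 (31.5 and 39.5 TPM), with the phospholipase Plcb4 at 31.0 and 26.5 TPM, and Prkcb was higher in replicate 2 (log2 ratio 1.23). All 6 transcription factors and coactivators of the cyclic AMP response were detected, with Creb1 at 13.6 and 18.4 TPM.

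Genes for making and clearing the transmitters held the largest ratio between the pools among the genes compared in the 17 lists. Th, tyrosine hydroxylase, had 25 and 365 counts (0.45 and 7.28 TPM, log2 ratio 3.80). Dbh, which makes noradrenaline from dopamine, had 40 and 382 counts (0.50 and 5.37 TPM, log2 ratio 3.18). Slc6a2, the noradrenaline transporter, had 5 and 415 counts and did not meet the count minimum. These 3 genes were low in replicate 1 and at 2.40 TPM or more in replicate 2. Slc22a3, a transporter that clears noradrenaline outside nerves, was also higher in replicate 2 (1.87), and Pnmt, which makes adrenaline, was the lowest of the list by mean TPM at 0.47 and 0.42 TPM. On the acetylcholine side, Chat had 0 and 3 counts, Slc18a3 8 and 50 counts, and the esterases Ache (6.67 and 13.0 TPM) and Bche (13.0 and 12.4 TPM) were detected. Adrb1 and Chrm2, the receptors for these transmitters, differed by 0.17 and -0.31 between the same libraries.

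**Figure D5:**
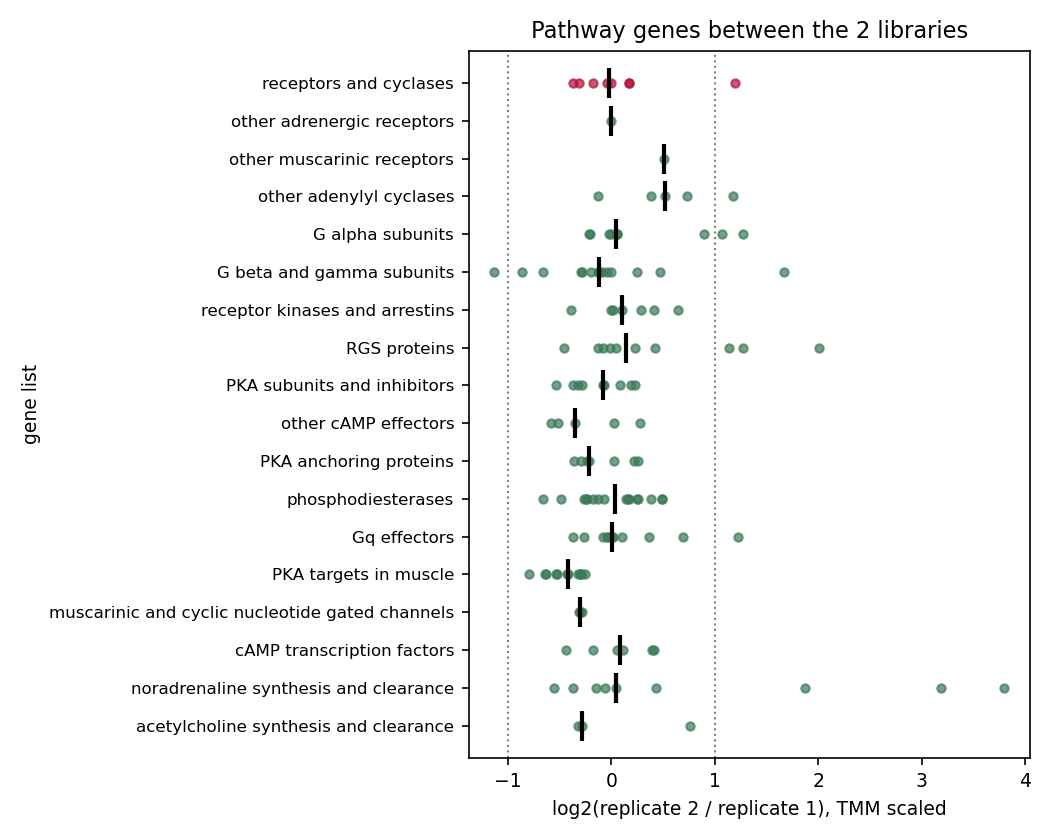
TMM-scaled log2 ratio of replicate 2 over replicate 1 for the genes of each list that met the minimum of 10 counts, 1 point for each gene, a black tick at the list's median and dotted lines at 2-fold. The receptor and cyclase genes centre near 0 with Adra1d at 1.19, the PKA targets all lie below 0, and Th and Dbh reach 3.80 and 3.18.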

How the data were processed

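Both RNA-seq libraries of the E15.5 heart group were used. Per the file headers and the texts deposited beside the files, quantification by the authors used transcriptome alignments, build mm10 and GENCODE M4. Which aligner and quantifier were run is not given in the sources. Expected counts, as deposited, estimate the reads of each feature and were rounded for ratios between libraries. The deposited TPM divide them by effective length and scale over all features, spike-ins included. The authors' deposited percent gives each transcript's part of its gene's TPM, and the level of their interval on the posterior mean TPM is not stated.

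Symbols, biotypes and gene positions came from GENCODE M21, on the same build, by stable identifier (42462 of 43346 genes matched). 1 listed gene, Pde2a, had no match and was left out. Numeric short features (26248) and spike-ins (97) entered no ratio or total of genes. TMM factors came from edgeR 4.0.16 and size factors from DESeq2 1.42.0 (R 4.3.3). Genes reaching 10 counts in each library were compared, with a 2-fold threshold. Intervals are at 95% and cover counting error only. The library ratio was tested on simulated data. The text names every member and, in each list, the highest and lowest gene, those beyond 2-fold and direct partners of members, and further genes chosen after their values were seen. Some listed genes are not reported here. Members and lists were chosen with earlier results of these data known. Alternatives were other pseudocounts, thresholds, scalings and filters, values without length normalization, posterior mean TPM, protein-coding transcripts and single libraries.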

Additional observations from a re-analysis of the deposited data

How the results depend on the processing

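There were 55 alternative values for the 6 ratios between members, the number detected and the number apart. Of these, 44 stayed within the spread of the 2 libraries or within 1.5 times the count, and 11 moved. Among the 6 ratios 0 turned in sign, and the numbers of members cannot do so. Part of this tally was fixed beforehand. A ratio from a single library always lies within the spread of the 2. Adrb1/Adrb3, Adcy6/Adcy5 and Adcy9/Adcy5 hold only transcripts annotated as protein-coding, so that alternative could not move them beyond rounding of the TPM. Without length normalization the log2 ratio was -2.80 for Adrb1/Chrm2, 1.27 for Adcy6/Adcy5 and -3.41 for Adcy9/Adcy5. With a pseudocount of 1 TPM it was 1.78 for Adrb1/Adrb3, 2.43 for Adra1b/Adra1a, 1.38 for Adcy6/Adcy5 and -2.07 for Adcy9/Adcy5, and with 0.01 TPM it was 5.66 for Adra1b/Adra1a. The members more than 2-fold apart between the libraries numbered 1 in the main comparison, 3 with spike-in scaling, 2 with no count filter (Adra1a entered) and 0 with at least 50 counts, a minimum that Adra1d does not meet. In a comparison added after the data were seen, Adra1b/Adrb1 went from 0.46 to -0.11 with protein-coding transcripts alone. That setting leaves out Adra1b-202 by its annotation, although its counts equal those of Adra1b-204 and the reads were not told apart. From single libraries the number of members at 1 TPM was 5 in replicate 1 and 7 in replicate 2. No paired analysis was possible because there is 1 group. Depth limits Adrb3 and Adra1a, whose counts of 7 to 22 cannot place them more closely than their intervals.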
